A study of Homo sapiens with 16 samples.

Results

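The genes of the proteasome were followed through 45 h of HER2 inhibition in SUM-225, a breast cancer cell line with amplification of the HER2 gene. The members were all probes whose gene symbol began with PSMA, PSMB, PSMC, PSMD or PSME and a digit, which gave 58 probes of 42 symbols among the 24526 probes of the array. A detection p-value under 0.05 on at least 3 of the 16 arrays was required, and 56 probes of 41 genes passed, among 16110 probes that passed in all. The probe of PSMA8, a testis-specific subunit, and the dimmest of 3 PSMA1 probes were detected on 0 arrays, and PSMA7 and PSMB11 were not analysed here. One of the symbols, PSMC3IP, names a recombination protein that is not a subunit of the proteasome, and it is described apart. The remaining 54 probes of 40 genes are called the subunits below, although they include 3 chaperones that leave the finished particle. Parallel cultures received 1 µM CP724,714, a small molecule that inhibits the HER2 kinase, and RNA was taken every 3 h from 0 to 45 h and hybridised to 1 Illumina bead array per time point. The labels give a medium with serum, insulin and hydrocortisone, whereas the methods of the study describe a serum-free medium without insulin for this line. No time point had a replicate and no untreated course was analysed here, so that the inhibitor, the medium change at its addition and time in culture cannot be told apart.

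The proteasome is the chamber in which cells degrade proteins that carry ubiquitin chains. Its 20S core is a stack of rings, with outer rings of alpha subunits that gate the chamber and inner rings of beta subunits that hold the proteolytic sites, and the 19S particle recognises, unfolds and feeds in the ubiquitinated proteins. Cells stimulated by interferon replace the catalytic beta subunits PSMB6, PSMB5 and PSMB7 with PSMB9, PSMB8 and PSMB10, which gives the immunoproteasome, and add the activator PA28, and the peptides produced are loaded onto class I molecules for display at the cell surface. Most subunit genes of the constitutive particle are also known to be raised together by the transcription factor NRF1, encoded by NFE2L1, when proteasome activity falls short.

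The arrays had median signals between 242 and 384 and between 14110 and 15073 detected probes. All values below are background-corrected, quantile-normalized log2 signals, so that a change is relative to the other probes of the array. Precision is limited by there being only 16 arrays. Errors are standard errors of a cubic course fitted over the 16 arrays. The arrays also formed sets of 4 consecutive time points, starting at 0, 12, 24 and 36 h, that differed from one another, and the labels name no batch. All 8 markers of HER2-amplified luminal epithelium were detected on all arrays, and ERBB2 reached 99.4% of the brightest signal. Of these 8, KRT8 and KRT18 fell (-0.68 and -0.74 log2 units over 45 h). Of the 6 fibroblast markers COL3A1, DCN and LUM were detected on 0 arrays, COL1A1 and COL1A2 on 5 each and PDGFRA on all 16, with 0 linear calls. The leukocyte markers PTPRC and NKG7 were detected on 0 arrays, while CD14 and CD68 were detected on all 16 and rose (0.34 and 0.38 log2 units over 45 h, adjusted p = 0.0499 and 0.0341). Of the 8 leukocyte markers 4 were tested, with a median linear change of 0.17, and LYZ and CD79A had no linear call. The summed linear level of the 4 lay between 2820 and 3720 in the first set and between 3380 and 5610 in the last. Of the 4 endothelial markers 3 were tested, with sums of 315 to 418 and of 346 to 454, and VWF, detected on 13 arrays, rose by 2.51, while PECAM1 changed by -0.56 and KDR by -0.32 with no call. Their part in the results below was not tested. In bulk cultures a change in the share of cells with a transcript and a change in its amount per cell cannot be told apart.

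The promoters of the members were read from RefSeq (GRCh38.p14) as windows from 250 bases before to 50 bases after the transcription start, and 37 of the 41 genes had 45 entries. Both strands were searched, and N stands for any base. The core of the interferon response element, GAAA repeated after any 2 bases, was in 3.57% of all 35116 promoters, in 2 of 4 entries of the immunoproteasome genes, in 2 of 3 of the PA28 genes, in 2 of 14 of the 20S core and in 0 of 18 of the 19S particle. The windows of PSMB10, PSMB8 (1 of its 2 entries) and PSME2 are shown to their first 10 transcribed bases, 5′ to 3′ on the gene's strand. In these 3 genes this core begins shortly before the start, and in PSME1, which is not shown, it begins at +6. The capitals mark this core on either strand, which begins at -21 in PSMB10, at -4 in PSMB8 and at -28 in PSME2, counted from the transcription start.
PSMB10 chr16:67936841-67937100 (minus strand): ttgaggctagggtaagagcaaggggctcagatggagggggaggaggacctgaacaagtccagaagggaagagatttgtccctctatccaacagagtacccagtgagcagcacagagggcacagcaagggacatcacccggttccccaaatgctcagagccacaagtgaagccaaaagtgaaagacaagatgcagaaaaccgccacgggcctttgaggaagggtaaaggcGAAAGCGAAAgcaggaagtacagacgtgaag
PSMB8 chr6:32844038-32844297 (minus strand): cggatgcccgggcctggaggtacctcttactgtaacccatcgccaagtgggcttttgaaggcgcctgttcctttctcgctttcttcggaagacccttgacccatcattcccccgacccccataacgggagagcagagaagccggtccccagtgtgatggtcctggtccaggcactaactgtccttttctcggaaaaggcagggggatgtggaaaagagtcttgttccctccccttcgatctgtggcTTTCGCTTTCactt
PSME2 chr14:24146601-24146860 (minus strand): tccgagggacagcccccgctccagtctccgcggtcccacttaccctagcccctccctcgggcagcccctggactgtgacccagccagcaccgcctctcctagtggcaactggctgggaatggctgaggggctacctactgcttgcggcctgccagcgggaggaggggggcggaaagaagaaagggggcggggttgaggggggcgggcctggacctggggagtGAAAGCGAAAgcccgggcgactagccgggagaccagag

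The core bound by NRF1 and its relative NRF2, TGANNNNGC, was in 41.8% of all promoters, in 10 of 14 entries of the 20S core and in 9 of 18 of the 19S particle. It was also in 3 of 4 entries of the immunoproteasome genes and in 2 of 3 of the PA28 genes. In the same order of groups, the ETS core GGAAGT was in 10 of 14, 9 of 18, 2 of 4 and 0 of 3, beside 22.8% of all promoters. CCAAT, the NF-Y site, was in 7 of 14, 8 of 18, 1 of 4 and 1 of 3, beside 34.6%. The STAT core TTCNNNGAA was in 2 of 14, 3 of 18, 1 of 4 and 1 of 3, beside 7.66%. The windows of PSMB9, which held no interferon response element core, of PSMD14, which had the largest fall of the particle, and of PSMA5, an alpha subunit with 5 matches in the 300 bases, 1 of them beyond the stretch shown, follow with TGANNNNGC in capitals. In PSMA5 a match and a CCAAT overlap. These matches are a description of the letters and do not show that a factor binds there.
PSMB9 chr6:32853942-32854201 (plus strand): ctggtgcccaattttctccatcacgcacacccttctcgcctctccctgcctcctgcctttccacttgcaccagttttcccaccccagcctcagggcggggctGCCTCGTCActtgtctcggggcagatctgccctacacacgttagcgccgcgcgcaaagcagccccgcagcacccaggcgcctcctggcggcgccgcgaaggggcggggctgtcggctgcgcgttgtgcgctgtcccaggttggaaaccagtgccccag
PSMD14 chr2:161308175-161308434 (plus strand): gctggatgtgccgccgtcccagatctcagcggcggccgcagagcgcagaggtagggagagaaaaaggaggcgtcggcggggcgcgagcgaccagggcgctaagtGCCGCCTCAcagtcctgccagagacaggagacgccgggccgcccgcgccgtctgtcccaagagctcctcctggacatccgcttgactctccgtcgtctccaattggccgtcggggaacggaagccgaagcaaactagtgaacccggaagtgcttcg
PSMA5 chr1:109426439-109426698 (minus strand): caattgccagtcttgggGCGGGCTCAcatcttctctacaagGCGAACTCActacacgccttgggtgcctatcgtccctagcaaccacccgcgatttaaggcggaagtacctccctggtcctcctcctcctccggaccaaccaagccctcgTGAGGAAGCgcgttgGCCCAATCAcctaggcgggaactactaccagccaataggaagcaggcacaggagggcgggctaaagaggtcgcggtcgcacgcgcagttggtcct

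Over the course 19 of the 30 genes of the 20S core and the 19S particle fell, led by the deubiquitinase subunit PSMD14 and the ATPase PSMC3 (the plot of linear changes by gene). The immunoproteasome subunit PSMB10 rose, and PSMB8 rose by 1 of its 4 probes. Of the 54 subunit probes, 33 (61.1%) had a course that varied with time (F-test in limma, adjusted p under 0.05), beside 51.3% of all probes tested. A linear fall was found for 25 probes (46.3%), beside 21.7% of all probes, and a linear rise for 4 (7.41%), beside 26% of all probes. In either direction 29 probes were called, beside 47.7% of all. Bent courses, which left a straight line in the F-test of the higher terms, were seen for 8 probes, beside 19.3% of all. By gene, with the brightest probe of each, 20 of 40 fell, 3 rose and 17 had no linear call. Of all genes tested 22% fell and 27% rose. The median linear change over 45 h was -0.28 log2 units over the 40 genes and 0.06 over all 13108 genes tested.

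**Figure D1:**
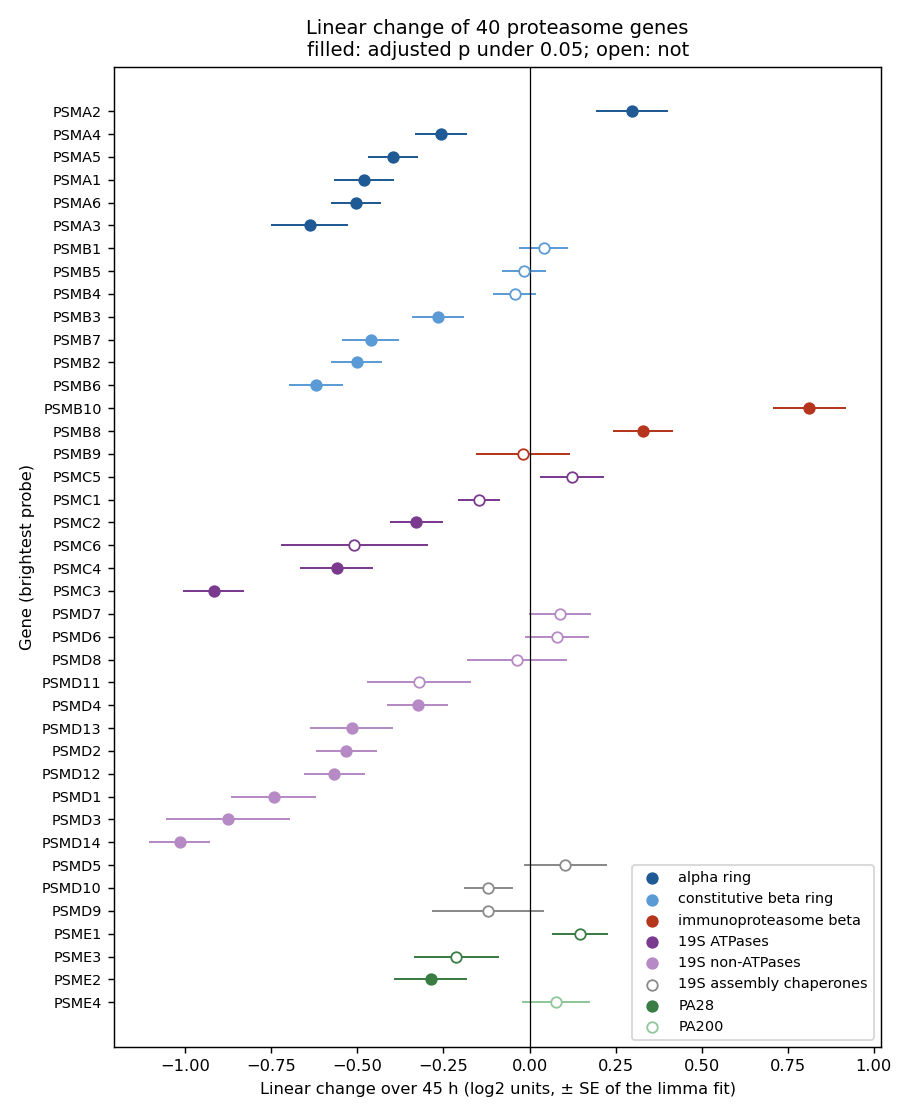
Linear change over 45 h in log2 units (x axis) of the 40 proteasome genes, 1 brightest probe each (y axis), with bars of ± 1 SE of the limma fit, coloured by subcomplex. Filled circles had an adjusted p under 0.05: 20 genes lie left of 0, and only PSMA2, PSMB8 and PSMB10 lie right of it.

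The direction was also read from the values alone. For 21 of the 54 probes all 4 arrays of 36 to 45 h were below all 4 arrays of 0 to 9 h, beside 16.3% of all probes tested, and for 3 probes they were all above, beside 19.7%. The other 30 overlapped. In a fit with a level for each set and a common slope, which uses only the differences within sets, 0 subunit probes had a linear call in limma, beside 0.422% rising and 0.478% falling of all probes. At an unadjusted p under 0.05 there were 6 of 54, beside 14.7% of all probes. The sign of the within-set slope was that of the fit over all arrays for 36 of the 54 probes, beside 11335 of all 16110 probes tested. Scaled to 45 h, the median slope within the sets was 0.0327 for the genes of the 20S core and 1.23 for the 3 of the immunoproteasome. For the 17 genes of the 19S particle it was -0.41, with single genes between -0.98 (PSMD1) and 0.62 (PSMD8). The median of these slopes over all probes was not computed. How far the differences between sets enter the changes over 45 h was not tested.

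All genes of the alpha ring but PSMA2 fell. The median linear change of its 6 genes was -0.44. Of these 5 fell, 1 rose and all 6 depended on time, beside 22%, 27% and 52.8% of all genes tested. PSMA3 fell most, by 0.64 ± 0.11 (SE) log2 units over 45 h (limma, adjusted p = 0.000104). Its values were 13.49, 13.30, 13.17 and 13.06 in the first set and 12.85, 12.89, 12.93 and 12.49 in the last, so that the late arrays were all below the early ones. With a step between 21 and 24 h in the fit the remaining change of PSMA3 was 0.19 (adjusted p = 0.571). PSMA6 (-0.50 ± 0.07), PSMA1 (-0.48 ± 0.09) and PSMA5 (-0.40 ± 0.07) fell as well, and the courses of PSMA5 and PSMA6 departed from a straight line, with their lower values from 9 or 12 h on. PSMA4 had the smallest change of the ring, -0.26 ± 0.08 (adjusted p = 0.00817). PSMA2 was the exception. Its change was 0.30 ± 0.11 (adjusted p = 0.0255), with values of 10.83, 11.03, 10.86 and 10.78 over the first 4 arrays and 11.06, 11.05, 10.996 and 11.12 over the last 4. These groups overlapped at 3 h, and without the 45 h array the adjusted p of PSMA2 was 0.0527. The call was also lost with cyclic loess (0.22, adjusted p = 0.101) and with array weights (0.16, adjusted p = 0.222).

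The constitutive beta ring was split. PSMB6, PSMB2, PSMB7 and PSMB3 fell, 4 of 7 beside 22% of all genes tested, and PSMB1, PSMB4 and PSMB5 had no linear call. PSMB6, the subunit with caspase-like activity, changed most. It stood at 14.78, 14.78, 14.90 and 14.71 over 0 to 9 h and at 14.24, 14.17, 14.14 and 14.50 over 36 to 45 h, a fall by 0.62 ± 0.08 (adjusted p = 2.0e-06) that corresponds to 1.54-fold. PSMB7, the subunit with trypsin-like activity, was at 14.74, 15.04, 15.23 and 15.11 and later at 14.57, 14.64, 14.58 and 14.72, a change of -0.46 ± 0.08 (adjusted p = 0.000124). It was highest at 6 h, not at 0 h, and its late values were all below the early ones. PSMB5, the subunit with chymotrypsin-like activity and the target of clinical proteasome inhibitors, stayed between 14.28 and 14.52 on all 16 arrays, with a change of -0.02 ± 0.06 (adjusted p = 0.853). PSMB2 changed by -0.50 ± 0.07 and PSMB3 by -0.27 ± 0.08. Within the sets PSMB3 ran the other way, ending all 4 sets above their start, by 0.23, 0.09, 0.03 and 0.22 log2 units. The PSMB1 probe reached 86.9% of the brightest signal on its array, which limits how well a change can be seen there.

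**Figure D2:**
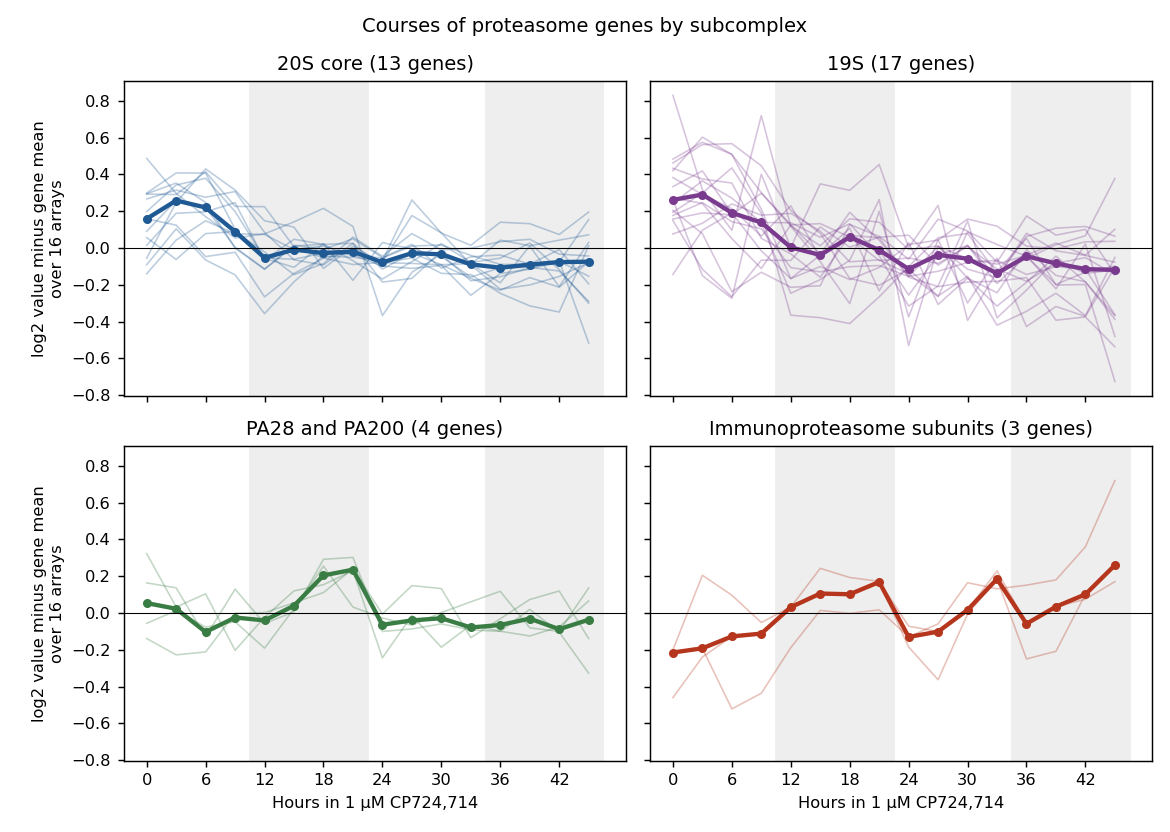
Log2 value minus the gene's mean over the 16 arrays (y axis) against hours in CP724,714 (x axis) for the 20S core, the 19S particle, PA28 with PA200, and the immunoproteasome subunits. Thin lines are genes, thick lines with points are medians over genes, and shading marks alternate sets of 4 arrays. The medians of the core and the 19S particle peak at 3 h (0.26 and 0.29) and are below 0 from 24 h on. That of the immunoproteasome is lowest at 0 h (-0.21) and highest at 45 h (0.26) without a steady rise, since it drops from 0.17 at 21 h to -0.13 at 24 h and from 0.19 at 33 h to -0.06 at 36 h.

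In the 19S particle 10 of 17 genes fell and 0 rose in the limma fit, beside 22% of all genes tested that fell and 27% that rose. The median linear change of the 17 was -0.51 log2 units. At an unadjusted p under 0.05 in the same fit 13 fell and 0 rose, beside 3212 that fell and 3975 that rose of all 13108 genes tested. PSMD14, the subunit that cuts the ubiquitin chain off a substrate as it enters, had the largest fall of all subunit genes. Its values were 13.18, 13.27, 13.21 and 13.0001 in the first set, 12.83, 12.67, 12.89 and 12.74 in the second, 12.54, 12.49, 12.51 and 12.52 in the third and 12.54, 12.31, 12.32 and 12.16 in the fourth. The first set did not overlap with any later set, and the last array was below the first in each of the 4 sets. The linear change was -1.02 ± 0.09 (adjusted p = 2.06e-08), or 2.02-fold, and with a step between 21 and 24 h it was -0.79 (adjusted p = 0.0167). Within the sets it was -0.67 ± 0.35 (adjusted p = 0.398).

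The 6 ATPases, which form the ring that unfolds substrates, had 3 genes that fell, beside 22% of all genes tested. PSMC3 fell by 0.92 ± 0.09 (adjusted p = 7.79e-08, 1.89-fold), and it had a bend in its course (adjusted p = 0.00389). It was between 13.97 and 14.09 over the first 9 h, dropped to 13.32 by 21 h and then stayed between 13.10 and 13.47. PSMC4 (-0.56 ± 0.10) and PSMC2 (-0.33 ± 0.08) fell too, and both PSMC4 probes were called in that direction. PSMC5 was at 0.12 ± 0.09 (adjusted p = 0.294), the smallest change among the ATPases. PSMC1 depended on time without a linear call (-0.15 ± 0.06, adjusted p = 0.0563), since it was at 14.98 to 15.12 up to 9 h, at 14.72 at its lowest at 24 h and back at 14.98 at 45 h. The single probe of PSMC6 was dim, with signals of at most 402, and its change of -0.51 ± 0.21 was not past the threshold.

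Beside 22% of all genes tested, 7 of the 11 non-ATPase subunits fell. Beside PSMD14 these were the scaffold subunits PSMD1 (-0.74 ± 0.12) and PSMD2 (-0.53 ± 0.09), which hold the base together and bind ubiquitin-like domains, the lid subunits PSMD3 (-0.88 ± 0.18), PSMD12 (-0.57 ± 0.09) and PSMD13 (-0.52 ± 0.12), and the ubiquitin receptor PSMD4 (-0.33 ± 0.09). PSMD1, like PSMD14, ended each of the 4 sets below its start. PSMD7, the partner of PSMD14 in the lid, behaved differently. It remained between 13.42 and 13.78, with a change of 0.09 ± 0.09 (adjusted p = 0.452), and its last array was above its first in all 4 sets. PSMD6 (0.08 ± 0.09) and PSMD8 (-0.04 ± 0.14) had no linear call but bent courses (adjusted p = 0.0474 and 0.0191). PSMD8 went from 13.58 at 6 h to 12.73 at 18 h and returned to 13.52 at 45 h, and all 4 arrays of 12 to 21 h were below the other 12.

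Most of the drop of the core and the 19S particle lay between the first set and the second. The mean of the class medians around the gene means went from 0.18 to -0.03 in the core and from 0.22 to 0.0037 in the 19S particle, and then to -0.09 by the last set in both. Between 9 and 12 h the value of 26 of the 30 genes was lower at the later hour, with a median step of -0.16 log2 units, beside 48.3% of all probes tested and a median step of 0.01. That interval is also the border between the first 2 sets. Between 6 and 9 h, within the first set, 21 of 30 were lower, with a median step of -0.12, beside 48.5% of all probes tested. The other intervals with more than 20 of 30 lower were 21 to 24 h and 30 to 33 h. From 21 to 24 h, again a border of sets, 22 were lower, with a median step of -0.09, beside 51.1% of all probes. From 30 to 33 h 23 were lower, with a median step of -0.07, beside 50.7%. At 3 h 11 of 30 were lower than at 0 h, beside 47.5% of all probes tested. The median of the 20S core rose from 0.16 to 0.26 log2 units around the gene means over these 3 h.

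The chaperones that assemble the base of the 19S particle, PSMD5, PSMD9 and PSMD10, had 0 linear calls among 5 probes in limma, beside 47.7% of all probes. At an unadjusted p under 0.05 there were also 0, beside 4727 rising and 3917 falling of all 16110 probes. By gene the median change of the chaperones was -0.12 log2 units. PSMD10, also known as gankyrin, was between 13.67 and 13.97 on all arrays (-0.12 ± 0.07). PSMD5 changed by 0.10 ± 0.12 and PSMD9 by -0.12 ± 0.16.

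PA28, the cap that opens the core without ubiquitin, had a different time course from the 19S particle. PSME1 started at 15.06, reached 15.31 and 15.44 by 18 and 21 h, and was at 15.20 and 15.06 at 24 and 45 h. PSME2, which forms the interferon-inducible ring together with PSME1, had values of 14.11, 14.24, 14.25, 13.84 and 13.62 at the same hours. Both were highest at 21 h and dropped at 24 h, the border of a set. Over 45 h PSME2 fell by 0.29 ± 0.11 (adjusted p = 0.0326) and PSME1 changed by 0.15 ± 0.08 (adjusted p = 0.151). The call of PSME2 was lost without the array of 0 h (adjusted p = 0.0631), of 3 h (0.0612) or of 45 h (0.154), and that of PSME1 was gained without the 45 h array (0.24, adjusted p = 0.0335). PSME3, which forms a nuclear ring by itself, changed by -0.21 ± 0.12 (adjusted p = 0.167). A second probe of PSME3 gave -0.44 ± 0.12 (adjusted p = 0.00454), and a dim second probe of PSME1 gave 0.41 ± 0.15 (adjusted p = 0.0295). PSME4, the nuclear activator PA200, changed by 0.08 ± 0.10 (adjusted p = 0.552) and was highest at 18 h, at 12.13.

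The 3 immunoproteasome subunits were detected on all 16 arrays. By gene 2 of 3 rose, beside 27% of all genes, and by probe 2 of 7 (28.6%), beside 26% of all probes, a share near that of the array. PSMB10 had the largest rise of the particle. Its values in the 4 sets were 14.58, 14.61, 14.28 and 14.36, then 14.61, 14.81, 14.80 and 14.82, then 14.67, 14.74, 14.96 and 14.93, and last 14.95, 14.98, 15.16 and 15.52. The lowest value was at 6 h and the highest at 45 h, and every array of the last set was above every array of the first 2 sets. The linear change was 0.81 ± 0.11 (adjusted p = 3.29e-06, 1.76-fold), and it was 0.68 without the 45 h array (adjusted p = 4.58e-05). Within the sets it was 0.94 ± 0.47 (adjusted p = 0.361).

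PSMB8 was at 13.01, 13.23, 13.35 and 13.36 in the first set, at 13.50, 13.72, 13.67 and 13.65 in the second, at 13.40, 13.37, 13.49 and 13.70 in the third and at 13.41, 13.51, 13.55 and 13.64 in the last. The first set was thus the lowest, and the 3 later sets overlapped with one another. The linear change was 0.33 ± 0.09 (adjusted p = 0.00422), with a departure from a straight line (adjusted p = 0.0139). It rested on the 0 h array, without which it was 0.20 (adjusted p = 0.102). The other 3 PSMB8 probes gave 0.21, 0.22 and 0.21 with no linear call, and like the brightest probe all were lowest at 0 h. PSMB9 had no trend over the course. It was at 10.18, 10.59, 10.48 and 10.33 in the first set, at 10.42 to 10.55 in the second, at 10.20, 10.02, 10.38 and 10.57 in the third and at 10.13, 10.18, 10.49 and 10.64 in the last, with a change of -0.02 ± 0.14 (adjusted p = 0.924).

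PSMB8 and PSMB9 both ended all 4 sets above their start (the plot of the immunoproteasome subunits with TAP1 and IRF1), as did PSMB3, PSMD7 and PSME4. The share of all probes that did so was not computed. The values did not rise steadily within the sets, and PSMB9 went from 10.59 at 3 h to 10.33 at 9 h. Comparing the end of each set with its start, PSMB8 was higher by 0.35, 0.14, 0.30 and 0.23 log2 units and PSMB9 by 0.15, 0.13, 0.37 and 0.51. Scaled to 45 h, although each set spans 9 h, the within-set slope was 1.23 ± 0.30 for PSMB8 (adjusted p = 0.0554) and 1.52 ± 0.51 for PSMB9 (adjusted p = 0.161), and neither was past the threshold. TAP1, which encodes a subunit of the peptide transporter of the class I pathway and is the protein-coding gene that lies between PSMB8 and PSMB9 on chromosome 6, had the same saw-toothed shape. It too ended all 4 sets above their start, by 0.22, 0.24, 0.31 and 0.30, with a within-set slope of 1.23 ± 0.28 (adjusted p = 0.0408) and a change over all arrays of 0.01 ± 0.11 (adjusted p = 0.922). IRF1, a transcription factor that interferon induces, followed another course, with values of 10.95, 10.58, 10.49 and 10.48 over 0 to 9 h and of 11.09 or above from 12 h on except at 15 h (11.01) and 24 h (10.96). Its change was 0.67 ± 0.14 (adjusted p = 0.000744), and within the sets 0.07 ± 0.49 (adjusted p = 0.969).

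**Figure D3:**
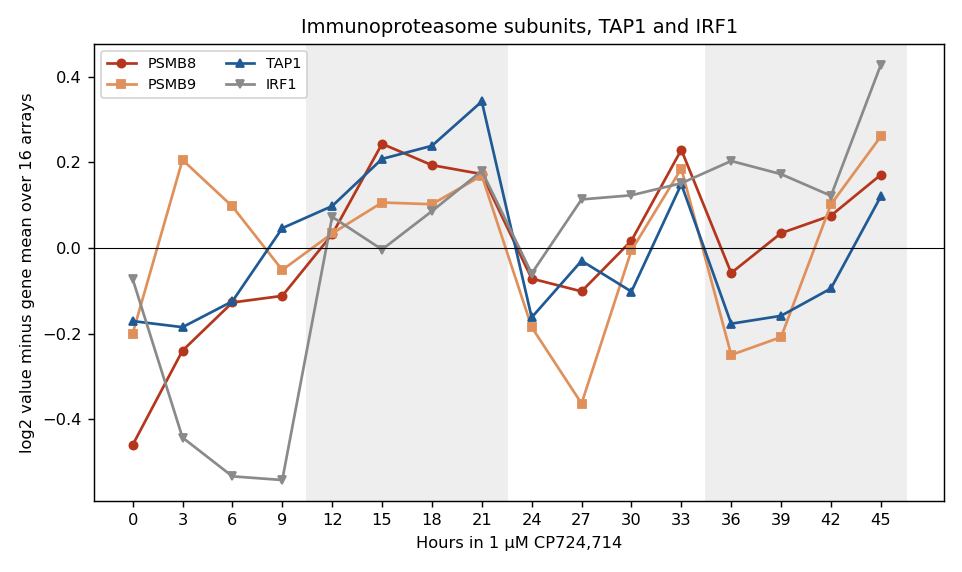
Log2 value minus the gene's mean over the 16 arrays (y axis) against hours in CP724,714 (x axis) for PSMB8, PSMB9, TAP1 and IRF1, 1 probe and 1 array per point, with shading for alternate sets of 4 arrays. PSMB8, PSMB9 and TAP1 end each set above its first array and drop at 24 h and 36 h, and IRF1 is lowest at 9 h.

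Each immunoproteasome subunit takes the place of 1 constitutive subunit, and the difference between the members of each of the 3 pairs was followed over time (the plot of the exchanged pairs). The differences are given around their own mean over the 16 arrays, because levels of different probes cannot be compared. PSMB10 minus PSMB7 was at -0.16, -0.44, -0.95 and -0.75 over 0 to 9 h and at 0.38, 0.34, 0.57 and 0.79 over 36 to 45 h. It increased by 1.27 ± 0.19 log2 units over 45 h (permutation test with 100000 resamples, n = 16, p = 1e-05, the smallest these can give; adjusted p = 3e-05 over the 3 pairs), made up of a rise of PSMB10 and a fall of PSMB7. PSMB9 minus PSMB6 was at -0.49, -0.09, -0.32 and -0.28 in the first set and at -0.0032, 0.11, 0.45 and 0.25 in the last. It increased by 0.60 ± 0.16 (permutation p = 0.00223, adjusted p = 0.00334), with a change of -0.62 in PSMB6 and of -0.02 in PSMB9. PSMB8 minus PSMB5 was at -0.52, -0.18, -0.21 and -0.20 and later at -0.09, -0.01, 0.11 and 0.21. Its increase of 0.35 ± 0.13 was not past the threshold (permutation p = 0.0571, adjusted p = 0.0571), and without the 0 h array it was 0.20 (adjusted p = 0.25), while it passed the threshold without the array of 15, 18 or 36 h. In each of the 3 pairs all 4 late differences were above all 4 early ones. Of all single probes tested 19.7% had late values all above the early ones, and the share among other pairs of probes was not computed.

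Within the sets, with hours permuted inside each set and slopes scaled to 45 h, the order of the pairs was another one. PSMB9 minus PSMB6 increased by 1.75 ± 0.53 (permutation p = 0.00905, adjusted p = 0.0271) and PSMB8 minus PSMB5 by 1.13 ± 0.42 (permutation p = 0.0265, adjusted p = 0.0397). PSMB10 minus PSMB7, the pair with the largest change over the whole course, had a slope of 0.64 ± 0.82 (permutation p = 0.451). This pair went from -0.16 at 0 h to its lowest value, -0.95, at 6 h.

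**Figure D4:**
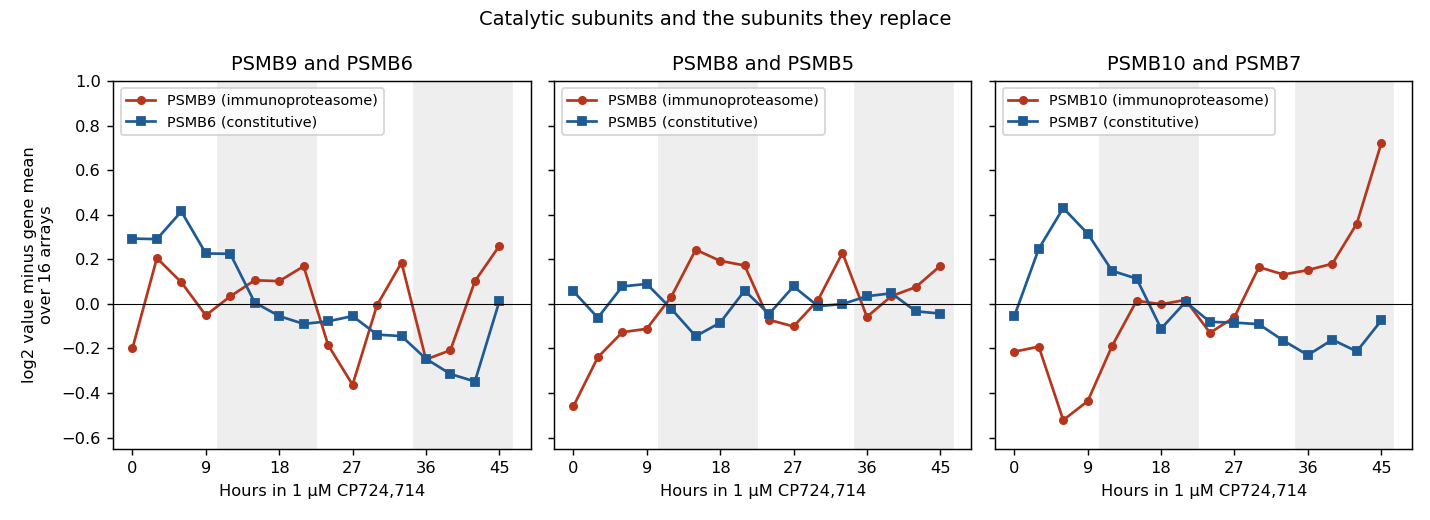
Log2 value minus the gene's mean over the 16 arrays (y axis) against hours in CP724,714 (x axis) for each immunoproteasome subunit (red circles) and the constitutive subunit it replaces (blue squares), 1 array per point, shading for alternate sets. PSMB10 is below PSMB7 up to 15 h and above it from 27 h on, PSMB6 falls while PSMB9 drops back at 24 and 36 h, and PSMB5 stays flat (14.28 to 14.52 before centring).

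The genes around the particle were read from lists of the same pathway, and their counts stand beside 27% of all genes tested that rose, 22% that fell and a median change of 0.06. Of 10 tested factors that assemble the proteasome or attach to it, 1 rose and 3 fell, with a median of -0.12. PSMG1 (DSCR2 on the array), a chaperone that pairs the first alpha subunits, went from 11.63 at 0 h to 10.41 at 24 h and 10.50 at 45 h and fell by 1.00 ± 0.13 (adjusted p = 2.1e-06). The deubiquitinase UCHL5 (-0.70 ± 0.11) and the receptor ADRM1 that anchors it to the particle (-0.40 ± 0.09) fell, and PAAF1, which binds the ATPases of the free 19S base, rose by 0.30 ± 0.08. Of 12 tested regulators of the subunit genes 4 rose and 1 fell, with a median of 0.08 and a share of rises near that of all genes. NFE2L1 rose from 11.48 at 0 h to 12.58 at 45 h, by 0.81 ± 0.12 (adjusted p = 1.02e-05), with a change of 0.32 (adjusted p = 0.449) once a step between 21 and 24 h was fitted and no call within the sets (adjusted p = 0.444). NGLY1, the glycanase that activates NRF1, rose by 0.34 ± 0.11, NFE2L2 by 0.29 ± 0.08 and NFYC, a subunit of NF-Y, by 0.55 ± 0.10, while MAFF changed by -0.42 ± 0.14 (adjusted p = 0.0217), a call lost without the 0 h array (0.117) or the 3 h array (0.118). Of 17 tested genes of ubiquitin and of its delivery to the proteasome 2 rose and 6 fell, with a median of -0.17. UFD1 (UFD1L on the array), a partner of the unfoldase VCP, fell by 1.01 ± 0.15 (adjusted p = 1.04e-05), and FAF1, another partner of VCP, by 0.56 ± 0.09. DDI1 had the largest rise (0.61 ± 0.23, adjusted p = 0.0389), but its signals were at most 343 and the call was lost on leaving out the array of 0, 3, 6, 12, 30, 33 or 42 h (adjusted p of up to 0.128).

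Among 12 tested genes of class I antigen processing 5 rose and 2 fell, with a median change of 0.09, beside the shares of 27% and 22% of all genes. HLA-E rose most, by 0.75 ± 0.10 (adjusted p = 6.77e-06), followed by PDIA3 (0.66 ± 0.24, detected on 9 arrays), the peptide-loading protein TAPBP (0.66 ± 0.09) and B2M (0.42 ± 0.09), and the chaperones CANX (-0.60 ± 0.10) and CALR (-0.49 ± 0.09) fell. Among 17 tested genes of interferon signalling 9 rose and 1 fell, with a median change of 0.53, beside the same shares and the median of 0.06, and this list contains many genes that interferon itself raises. The receptor gene IFNAR1 rose by 1.01 ± 0.13 (adjusted p = 2.64e-06) and GBP1 fell by 1.38 ± 0.25 (adjusted p = 0.000119). With a step between 21 and 24 h the change of GBP1 was -0.13 (adjusted p = 0.907), and that of CANX was -0.19 (adjusted p = 0.634). IFNAR1, HLA-E and IRF1 kept their calls with the step, and within the sets none of these 5 genes had a call. In the fit within the sets 4 of these 17 had a linear call, among them IFIT1, OAS1 and MX1, and in the class I list TAP1 did, beside 0.9% of all probes in either direction. IFIT1, OAS1 and MX1 were picked out after their values were seen.

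Several members were measured by more than 1 probe, and the probes of a gene mostly had the same sign. The probes of PSMA1 (-0.48 and -0.56), PSMA3 (-0.64 and -0.75) and PSMC4 (-0.56 and -0.63) all fell. For PSMD4 the brightest probe fell, the second changed by -0.15 ± 0.07 (adjusted p = 0.0907) and the dimmest, detected on 12 arrays, fell by 1.18 ± 0.32. The second PSMD13 probe gave -0.33 ± 0.15 (adjusted p = 0.0704), and the dim second PSMB9 probe 0.11 ± 0.24.

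PSMD3 and PSMB3 lie on chromosome 17 near ERBB2, the amplified gene that encodes HER2, with 8 and 21 protein-coding genes in between. Both fell, by 0.88 ± 0.18 (adjusted p = 0.000498) and 0.27 ± 0.08 (adjusted p = 0.0067). PSMD3 was at 10.61, 10.10, 9.88 and 10.50 over 0 to 9 h and at 9.35, 9.46, 9.41 and 9.67 over 36 to 45 h, and within the sets its slope was 0.37 ± 0.73 (adjusted p = 0.866). The brightest ERBB2 probe changed by 0.02 ± 0.04, at the top of the scale.

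PSMC3IP, the recombination protein whose symbol met the rule, moved far more than any subunit. Its brighter probe was at 9.53, 9.41, 9.44 and 8.73 over 0 to 9 h, at 7.79, 7.46, 7.50 and 7.78 over 12 to 21 h and at 7.53, 6.61, 7.09 and 6.63 over 36 to 45 h, a change of -2.58 ± 0.25 (adjusted p = 6.84e-08). The dimmer probe gave -2.34 ± 0.27. Each of the 2 probes was lower on all late arrays than on all early ones.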

How the data were processed

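RNA of SUM-225 cultures in 1 µM CP724,714 was hybridised to 16 Illumina bead arrays, 1 per time point from 0 to 45 h, grouped by the time in their labels. For each probe the deposited table gives a signal intensity on a linear scale, before background subtraction and normalization by the authors, and the deposited detection p-value of each signal. The study's methods name the Illumina human Ref8v2 array for its time series, and the scanning software is not given in the sources used here.

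Background was removed with the normexp model, with negative controls inferred from the detection p-values and an offset of 16, which shrinks changes of dim probes. Quantile normalization and log2 conversion followed (neqc, limma 3.58.1 in R 4.3.3). Tested were the 16110 probes detected (p under 0.05) on 3 arrays or more. To each of them limma fitted a cubic in hours, with moderated variances that followed the mean level. All 3 coefficients together gave time dependence, the first the linear change over 45 h, and the others the bend, in two-sided tests adjusted by Benjamini-Hochberg over all probes tested at 0.05. Errors come from deviations around the fitted course, which also hold any true change a cubic cannot follow, and measure only the spread among these arrays. Pair differences were tested by permuting the hours. The code was tested on simulated data.

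The members and gene lists were chosen with earlier results of these data known, the 12 h sets included. Named were PSMB5 to PSMB10, all PA28 and PA200 subunits, in each other class the members with the largest rise, largest fall and smallest change, in each other list the largest rise and fall past the threshold, and TAP1 and IRF1, each by its brightest probe. Results for some items are not reported here. Other genes named were chosen after their values were seen. Older array symbols were matched through the RefSeq gene table. Results were recomputed without background correction, with an offset of 50, with median scaling or cyclic loess, with all probes or only those detected on every array, with a step between 21 and 24 h, with the 12 h sets as a factor, with array weights, with a straight line, with all probes of a gene, and on leaving out each array. Plots were made in Python 3.11.15 (matplotlib 3.10.9).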

Additional observations from a re-analysis of the deposited data

How the results depend on the processing

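Of 303 recomputed values for the main counts, medians and pairs, 275 kept their call or stayed near the first value, and no pair changed sign. Counts of probes in this section are of subunit probes. Except with the 12 h sets as a factor, the shares of all probes under these settings were not computed. Of 720 values for single named genes 633 kept their direction and call, 47 lost a call, 5 gained one and 35 changed sign. Without background correction the median linear change of the 19S particle was -0.32, with an offset of 50 it was -0.38, and with array weights -0.38. Median scaling gave -0.53 for the 20S core, 0.40 for PSMB8 minus PSMB5 (adjusted p = 0.0396), -0.0014 for PSME1 and -0.038 for TAP1. Cyclic loess gave 2 rising and 4 bent probes and -0.033 for TAP1. Without a filter on dim probes 5 probes bent. Array weights gave 0.0244 for PSMB5 and -0.032 for PSME4, a call for PSME1 (0.27, adjusted p = 0.00974) and none for PSME2 (-0.25, adjusted p = 0.059) or PSMA2.

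With a step between 21 and 24 h 7 probes fell and 16 bent, without a share of all probes to set beside them. The medians were -0.24 (20S core), -0.29 (19S), 0.48 (PA28, a change of sign) and 0.79 (immunoproteasome). PSMA3 was then at 0.19, PSMB9 at 0.42, PSMD5 at -0.14, PSME2 at 0.47 and PSME3 at 0.48, and the calls of PSMA2, PSMA4, PSMG1, PAAF1, NFE2L1, MAFF, UFD1, DDI1, CANX and GBP1 were lost, while TAP1 gained one (0.67, adjusted p = 0.0379). With a level for each 12 h set 0 probes rose and 0 fell in limma (6 of 54 at an unadjusted p under 0.05, beside 14.7% of all probes). The medians were then 0.0327 (20S core) and 0.091 (PA28), both of changed sign, -0.41 (19S) and 1.23 (immunoproteasome). PSMB8 minus PSMB5 was 1.13 and PSMB10 minus PSMB7 0.64. PSMB5 was at 0.10, PSMB7 at 0.30, PSMB9 at 1.52, PSMC5 at -0.41, PSMD8 at 0.62, PSME2 at 0.091 and PSME3 at 0.073. Each set spans 9 h, so that this fit has larger errors. Causes were not tested.

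On leaving out single arrays, the probes that rose numbered 2 (without 0 h) to 4, those that fell 25 to 27, those that bent 5 (without 3 h or 15 h) to 11, and those that depended on time 29 to 34. The 19S median ranged from -0.52 to -0.36 (without 45 h), and PSMB8 minus PSMB5 from 0.199 (without 0 h) to 0.3997 (without 15 h, adjusted p = 0.0132), and it also passed the threshold without 18 h or 36 h. Ranges that crossed 0 were those of PSMB5 (-0.041 to 0.0041), PSMB9 (-0.13 to 0.051), PSMD8 (-0.21 to 0.085), PSMD5 (-0.054 to 0.18), and TAP1 (-0.055 to 0.061), none of which had a linear call. No paired analysis was possible because the time points have no replicates. The bright probes of PSMB1, PSME1 and ERBB2 and the dim probes of PSMC6 and DDI1 limit what their values can show.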

Other observations

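Of the 41 genes of the rule, PSMC3IP included, 17 were below their 0 h value on the 3 h array, 33 on that of 12 h, 35 on that of 39 h and 30 on that of 45 h, beside 47.5%, 48.2%, 47.1% and 47% of all probes tested. The median of the 40 subunit genes around their means was highest at 3 h (0.20) and lowest at 33 h (-0.09).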
